A study of Homo sapiens with 6 samples.

Results

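The genes described are the HOX homeobox genes of the HOXA, HOXB, HOXC and HOXD clusters together with MEIS1 and PBX3, whose proteins bind DNA beside HOX proteins. The members were chosen by symbol: 38 HOX genes, 10 in HOXA, 10 in HOXB, 9 in HOXC and 9 in HOXD, plus MEIS1 and PBX3, 40 of the 60660 gene IDs listed for each library. Their levels were read in 6 RNA-seq libraries of the human cell line OCI-AML3, which was established from acute myeloid leukaemia. The SLC2A3 group held 3 libraries of cells overexpressing SLC2A3, the gene of the glucose transporter GLUT3, and the pLenti group held 3 libraries of cells with the empty lentiviral vector. Cells of both groups were grown with 250 µM vitamin C, so no library shows the line without it, and both groups come from 1 cell line. The labels name no promoter for the transgene, and do not say whether each group is a clone, a pool or several cultures.

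HOX genes encode homeodomain transcription factors. In each cluster they stand in the order in which they are switched on along the body axis of the embryo, from the low-numbered anterior genes to the high-numbered posterior genes. Genes with the same number in different clusters are paralogues. In blood, several HOXA and HOXB genes are active in stem and progenitor cells and are shut down as cells mature. MEIS and PBX proteins are homeodomain factors of another class (TALE) that bind DNA together with HOX proteins. High HOXA9 and MEIS1 is a known feature of acute myeloid leukaemia with a mutated NPM1, the mutation that OCI-AML3 is known for.

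The homeodomain touches the major groove of DNA through its recognition helix. The bases that code for it are alike between HOX genes, and short reads can be hard to place where a run is identical. In a stretch of 51 bases around this helix, the other HOX genes differed from HOXA9 at 5 to 14 bases. Over whole transcripts, the longest run of identical bases shared with a non-overlapping member was 62 bases between HOXB3 and HOXD3, 51 between HOXB6 and HOXB7, 50 between HOXB4 and HOXB5, 41 between HOXA6 and HOXA7 and 40 between HOXB9 and HOXD9. HOXA9 shared at most 31 bases and HOXA10 at most 29. How such reads were divided is not stated in the labels. HOXD3 and HOXD9, the partners of HOXB3 and HOXB9, held 2 and 4 reads in all 6 libraries together.

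The clusters also carry the miR-196 and miR-10 microRNA genes. The mature miR-196 forms are shown because HOXB8 holds a near-complete site for miR-196. The sequences are from RefSeq on GRCh38.p14, with the seed (bases 2 to 8) in capitals.
hsa-miR-196b-5p: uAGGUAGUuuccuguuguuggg
hsa-miR-196a-5p: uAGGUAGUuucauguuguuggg
The site lies in the HOXB8 transcript, on chromosome 17, and starts 411 bases after the stop codon. Capitals mark bases that pair with miR-196a-5p in the usual way and the lower-case base forms a G:U pair.
HOXB8 site: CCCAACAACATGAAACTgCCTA
In an ungapped match over 22 bases, the site paired at 21 bases and formed 1 G:U pair. Of 19684 coding genes scanned, 1, HOXB8 itself, reached this many. Next among the members was HOXA7, at 15 paired bases, which 10.1% of coding genes reached or passed. Cleavage of Hoxb8 mRNA directed by miR-196 is known from mouse embryos. The genes MIR196A1, MIR196A2, MIR196B, MIR10A and MIR10B were listed at 0 in all 6 libraries, and gene-level reads of this kind do not measure mature microRNAs.

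The values are normalised reads, that is, reads per gene scaled by 1 factor for each library. The libraries held 31054462 to 35770556 recovered reads. Sums over the 10 myeloid markers were 92871 to 97299 normalised reads in SLC2A3 libraries and 92061 to 95817 in pLenti libraries. Summed markers of erythroid cells reached 4.27 in SLC2A3 libraries and 4.07 in pLenti libraries. T cell markers summed to at most 8.36 in SLC2A3 libraries and 8.15 in pLenti libraries, epithelial markers to at most 69.4 in SLC2A3 libraries and 49.9 in pLenti libraries, and fibroblast markers to at most 68.1 in SLC2A3 libraries and 47.1 in pLenti libraries. Megakaryocyte markers summed to 209 to 293 in SLC2A3 libraries and 227 to 274 in pLenti libraries, nearly all of it ITGA2B, with a mean of 239 over the 6 libraries, while PF4 was near 0. Of these lists, 0 genes were called (limma, adjusted p under 0.05), where 1.49% of all 28015 genes tested were. Of the 10 myeloid markers, 4 had an unadjusted limma p under 0.05, against 11.8% of all genes tested. That share covers genes of all levels, while the lowest mean among the 10 was 174 normalised reads. SLC2A3 itself had 4056, 3716 and 4054 normalised reads in SLC2A3 libraries, against 1194, 1183 and 1257 in pLenti libraries, a log2 fold change of 1.70.

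Levels along the clusters were compared per kilobase (kb) of annotated exon, since a longer gene collects more reads. Of the 40 members, 24 reached at least 1 normalised read per kb on average over the 6 libraries, and 10 reached at least 100. By cluster, 10 of 10 HOXA genes, 9 of 10 HOXB genes, 3 of 9 HOXC genes and 0 of 9 HOXD genes reached 1 per kb. The HOXA cluster was high at its posterior end, the HOXB cluster was active along nearly its whole length, and the HOXC and HOXD clusters carried almost no reads. Of 200231484 reads recovered over the 6 libraries, 70264 were in HOXA, 22941 in HOXB, 129 in HOXC and 7 in HOXD.

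**Figure D1:**
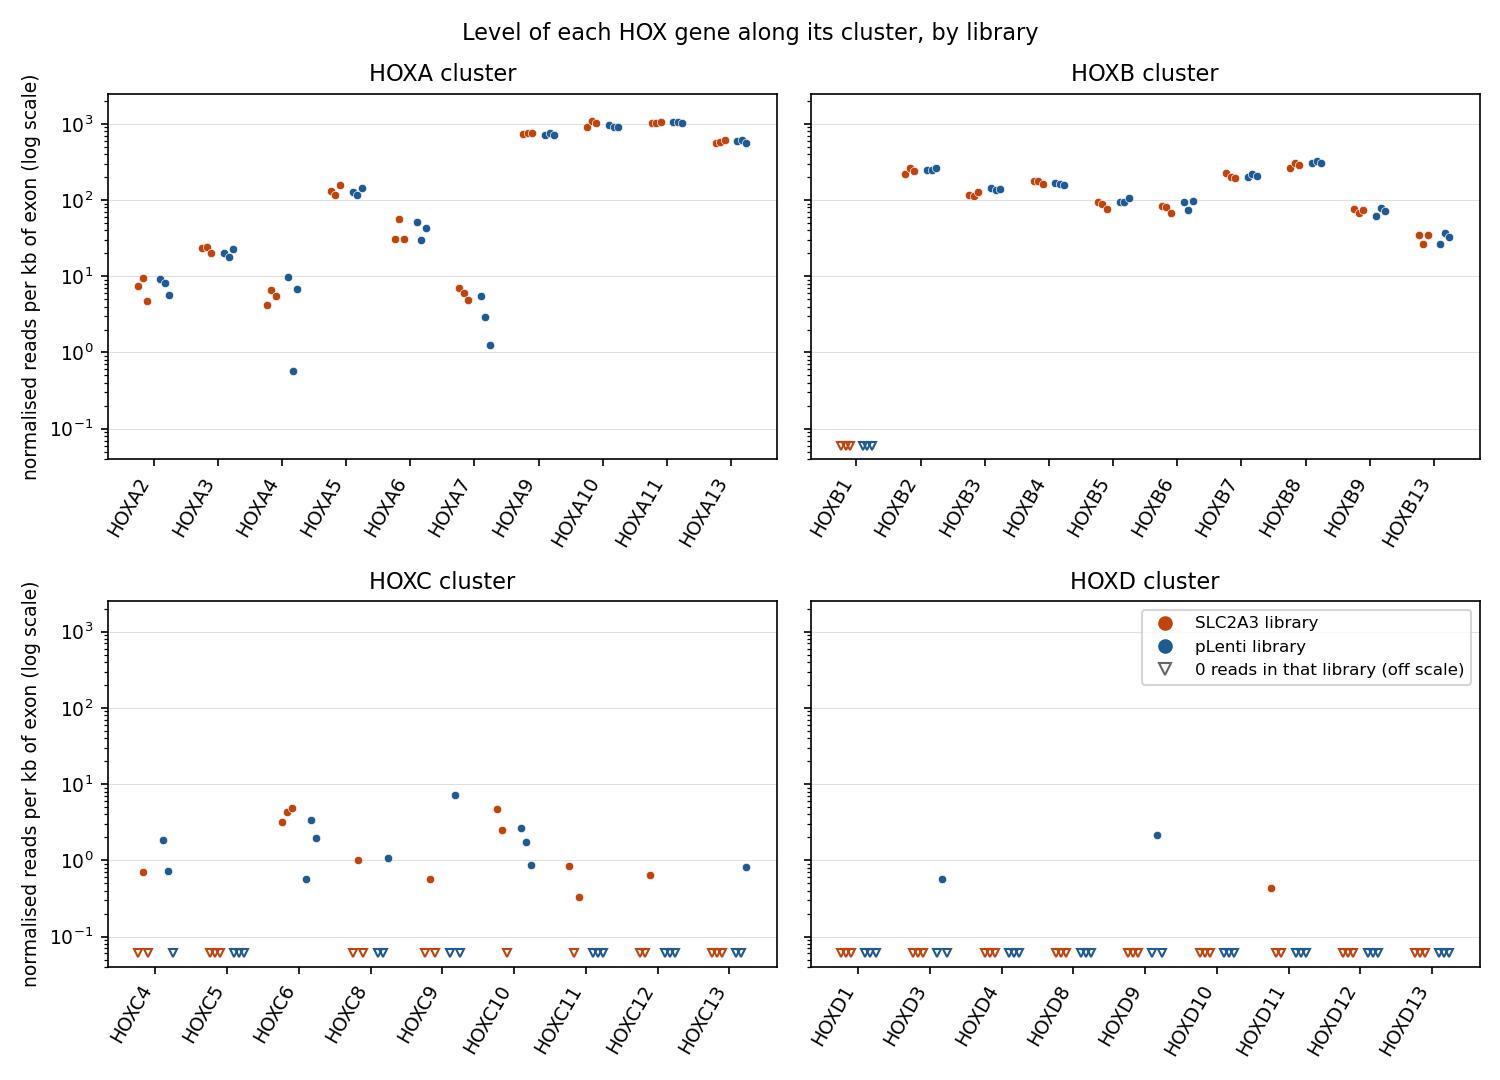
Normalised reads per kb of exon on a log scale for each HOX gene, in cluster order from anterior to posterior, with 1 point per library, SLC2A3 left of pLenti, and open triangles for 0 reads. HOXA9, HOXA10, HOXA11 and HOXA13 sit at the top in all 6 libraries, the HOXB genes from HOXB2 to HOXB13 lie between about 30 and 300 per kb on average, and HOXC and HOXD genes are at or near 0.

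HOXA spans members from HOXA2 to HOXA13 on chromosome 7, 27100354 to 27200106 (GRCh38), all on the minus strand. Its levels were uneven along the anterior part. HOXA2, a hindbrain and neural crest patterning gene, stood at 7.44 normalised reads per kb over the 6 libraries, HOXA3 at 21.4 and HOXA4 at 5.62. HOXA5, known to act in lung and in the choice between erythroid and myeloid fates, stood at 133 per kb, 23.6 times its neighbour HOXA4. HOXA6 then stood at 40.7 and HOXA7 at 4.57 per kb.

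The step to the posterior genes lay between HOXA7 and HOXA9. HOXA9 (ENSG00000078399.19, 27162435 to 27175180), whose high level is tied to poor outcome in myeloid leukaemia, averaged 749 ± 7.90 per kb in SLC2A3 libraries and 731 ± 25.1 per kb in pLenti libraries (SD, n = 3 each). It stood at 162 times HOXA7 per kb over all libraries, and at 107 to 580 times by library. HOXA10, which controls progenitor growth in blood, averaged 1016 ± 93.7 per kb in SLC2A3 libraries and 932 ± 35.9 in pLenti libraries. HOXA11, best known from limb, kidney and uterus, averaged 1039 ± 29.9 per kb in SLC2A3 libraries and 1035 ± 20.5 in pLenti libraries. HOXA13, a gene of the distal limb and hindgut, averaged 584 ± 29.9 per kb in SLC2A3 libraries and 593 ± 28.3 in pLenti libraries. HOXA9, HOXA10, HOXA11 and HOXA13 together held 96.2% to 97.0% of the reads of the 10 HOXA genes in each library. Of all protein-coding genes, 90.0% stood below HOXA9 per kb, 92.5% below HOXA10, 93.0% below HOXA11 and 87.5% below HOXA13.

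Exon overlaps limit how exactly some of these levels can be assigned. In GENCODE 29, 62.5% of the HOXA7 exon bases face HOXA-AS3 on the other strand, 39.3% of the HOXA6 bases do so too, and 31.1% of the HOXA11 bases face HOXA11-AS. On the same strand, 31.0% of HOXA4 and 15.9% of HOXA9 exon bases are shared with other annotated genes. The labels do not say whether counting used strand. The read-through genes AC004080.3, AC004080.5 and AC004080.6, which share exon bases with HOXA genes, were listed at 0. HOXA9 stood at 880 per kb when its length was limited to bases that no other gene on the strand shares.

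The HOXB members lie on chromosome 17, 48528526 to 48729178, also on the minus strand. HOXB1, the anterior gene of the cluster, had 0 reads in all 6 libraries. HOXB2 followed at 246 per kb, HOXB3 at 129, HOXB4, known for expanding blood stem cells when overexpressed, at 167, HOXB5 at 92.6 and HOXB6 at 82.9. HOXB7 stood at 209 per kb and HOXB8, which blocks myeloid maturation when overexpressed in mouse progenitors, at 300.3, the highest mean in the cluster. The library values of HOXB8 and HOXB2 overlapped. With the longest transcript as the length, HOXB2 stood above HOXB8, at 368 against 338 per kb. HOXB9 stood at 72.0 per kb, 2.24 times HOXB13, a prostate and hindgut gene at 32.1. The levels of HOXB2 to HOXB13 thus lay within a range of about 10-fold, without a step like that between HOXA7 and HOXA9. Exons overlap here too: 17.1% of HOXB4 and 16.6% of HOXB6 exon bases are shared with other genes on the strand. AC103702.1, which shares bases with HOXB4, averaged 149 normalised reads over the 6 libraries.

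Paralogues in HOXA and HOXB differed in level along the clusters. Per kb over the 6 libraries, the HOXB gene was higher in paralogue group 2 by 33.1 times, in group 3 by 6.03, in group 4 by 29.7, in group 6 by 2.04 and in group 7 by 45.6. The HOXA gene was higher in group 5 by 1.43 times, in group 9 by 10.3 and in group 13 by 18.3. HOXA4 with 59 reads and HOXA7 with 67 make the ratios of groups 4 and 7 imprecise.

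Of the HOXC members, on chromosome 12 (53938765 to 54056030, plus strand), HOXC6 stood at 3.04 per kb, HOXC10 at 2.07 and HOXC9 at 1.29. Nearly all HOXC9 reads came from pLenti replicate 2, with 0, 0.959 and 0 normalised reads in SLC2A3 libraries and 0, 12.0 and 0 in pLenti libraries. HOXC4 stood at 0.551 per kb, HOXC8, HOXC11, HOXC12 and HOXC13 between 0.107 and 0.346, and HOXC5 at 0. The 9 HOXC genes held 129 reads in all. The 9 HOXD genes, on chromosome 2 (176092891 to 176190907, plus strand), held 7 reads in all: HOXD9 had 4, HOXD3 had 2 and HOXD11 had 1. HOXD1, HOXD4, HOXD8, HOXD10, HOXD12 and HOXD13 had 0 reads, as did HOXB1 and HOXC5. A count of 0 in 200231484 reads allows up to 3 reads, a limit that covers counting error only. Most HOXD3, HOXD4 and HOXC5 exon bases, 62.2%, 80.5% and 59.9%, are shared with other annotated genes, and how such reads were counted is not stated. AC012531.2 and another HOXC5 gene ID, which share the HOXC5 bases, were listed at 0. AC009336.2, which shares the HOXD3 and HOXD4 bases, was not among the listed gene IDs.

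MEIS1, on chromosome 2 (66433452 to 66573869), averaged 93.4 ± 2.36 per kb in SLC2A3 libraries and 100.2 ± 8.82 in pLenti libraries. PBX3, on chromosome 9 (125747345 to 125967377), averaged 88.2 ± 9.69 per kb in SLC2A3 libraries and 86.7 ± 1.38 in pLenti libraries. MEIS1 was at 1.11 times PBX3 over the libraries, with 0.959 to 1.24 by library, so their levels could not be ordered. With the longest transcript as the length, MEIS1 was at 1.52 times PBX3. Both stood below HOXA9, HOXA10, HOXA11 and HOXA13 per kb. Among other HOX cofactors, PBX2 stood at 710 per kb, PBXIP1, whose protein binds PBX proteins, at 988, PKNOX1 at 89.5, PBX4 at 60.2, MEIS2 at 9.74, MEIS3 at 9.27 and PKNOX2 at 0.649.

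In the order of levels per kb of annotated exon, HOXA11 and HOXA10 led and their library values overlapped, followed by HOXA9, HOXA13 and HOXB8. HOXA10 and HOXA9, HOXA9 and HOXA13, and HOXA13 and HOXB8 did not overlap in any library. Below HOXB8, HOXB2 and HOXB7 overlapped their upper neighbour, as did HOXA5 with HOXB4 and HOXB3 with HOXA5. MEIS1, HOXB5, PBX3, HOXB6 and HOXB9 formed a run in which each neighbouring pair overlapped. In all, 15 of the 23 neighbouring pairs among the 24 highest members overlapped. The order depends on the length used. With the longest transcript as the length, HOXA10 stood at 1421 per kb, HOXA9 at 1088 and HOXA11 at 1043. MEIS1 then stood at 207 and HOXB5 at 92.6 per kb.

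Promoters, 250 bases before to 50 after the start, were available in RefSeq (GRCh38.p14) for 22 of the 40 members, 29 promoters in all. They are shown for a gene at a high level (HOXA9, chr7:27165488-27165787, minus strand), its low neighbour (HOXA7, chr7:27156626-27156925, minus strand) and a gene with 0 reads (HOXD10, chr2:176116528-176116827, plus strand). Capitals mark CG dinucleotides.
HOXA9 promoter: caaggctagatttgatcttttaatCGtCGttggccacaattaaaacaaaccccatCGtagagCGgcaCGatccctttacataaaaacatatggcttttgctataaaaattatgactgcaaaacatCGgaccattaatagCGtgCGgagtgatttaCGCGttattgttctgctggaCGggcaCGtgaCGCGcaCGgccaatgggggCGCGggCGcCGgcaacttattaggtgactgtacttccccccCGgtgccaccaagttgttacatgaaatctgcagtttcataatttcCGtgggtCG
HOXA7 promoter: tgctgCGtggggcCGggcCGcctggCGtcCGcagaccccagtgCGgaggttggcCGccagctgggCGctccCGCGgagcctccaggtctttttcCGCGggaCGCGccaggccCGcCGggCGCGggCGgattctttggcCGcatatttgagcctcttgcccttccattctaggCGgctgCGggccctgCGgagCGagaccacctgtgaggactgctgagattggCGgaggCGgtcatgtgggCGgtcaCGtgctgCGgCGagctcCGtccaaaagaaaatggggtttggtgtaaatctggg
HOXD10 promoter: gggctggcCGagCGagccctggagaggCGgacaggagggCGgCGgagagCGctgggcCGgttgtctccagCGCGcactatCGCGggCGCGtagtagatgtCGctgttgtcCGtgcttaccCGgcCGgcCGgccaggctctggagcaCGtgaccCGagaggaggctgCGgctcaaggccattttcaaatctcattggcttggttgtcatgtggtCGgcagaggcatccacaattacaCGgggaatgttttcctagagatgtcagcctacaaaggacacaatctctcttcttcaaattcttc
The 300 bases held 22 CG dinucleotides at HOXA9, 31 at HOXA7 and 23 at HOXD10, against a median of 14 over 35116 promoters. The 8 HOXD promoters, all of genes with 0 to 2 reads, held 4 to 36, with a median of 24.5. The 16 promoters of 9 HOXA genes had a median of 21.5. The CG numbers of genes at high levels and of genes at 0 thus overlapped. Searched on both strands, CCAAT was found in 19 of the 29 promoters and in 34.6% of all, TATAAA in 5 and in 11.5% of all, GGGCGG in 14 and in 45.0% of all, TGACAG, a MEIS motif, in 5 and in 15.8% of all, and TGATTNAT, a HOX-PBX motif, in 2 and in 2.82% of all. HOXA9 and HOXA10 held TATAAA and CCAAT, and HOXA7 and HOXD10 held CCAAT without TATAAA. None of these motifs contains another, HOXA3 has 7 of the promoters, and HOXC4 and HOXC5 share 1, so the counts are not independent.

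The comparison asks whether HOX, MEIS1 and PBX3 levels differed once GLUT3 was raised in cells with vitamin C. They differed little. Of the 40 members, 24 passed the filter on low values (at least 1 in at least 3 libraries), and 0 of them passed limma's test at an adjusted p under 0.05, where 1.49% of all 28015 genes tested passed. Unadjusted p was under 0.05 for 2 of the 24, HOXA10 and HOXB3, against 11.8% of all genes. The groups did not overlap for 2 of the 24, HOXB3 and HOXB5, against 16.3% of all genes. edgeR called 0 of 22 members it tested, and 3.29% of its 18630 genes. Its unadjusted p was under 0.05 for 2 of the 22 members and for 2789 of all its genes. DESeq2 with its default filter gave 11 members an adjusted p and called 1, HOXB3, against 7.98% of its genes. Its unadjusted p was under 0.05 for 2 of 32 members and for 2508 of 37328 genes.

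Point estimates were higher for 13 and lower for 11 of the 24, with a median log2 fold change of 0.0055, against 0.0014 over all genes tested. For all 16 members with a mean of at least 100 normalised reads, the 95% interval of the fold change lay within 1.5-fold of no difference. The median size of their log2 fold change was 0.056, against 0.081 over the 11730 tested genes at such a mean. In bulk libraries, a lower level per cell and fewer cells with the transcript cannot be told apart.

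**Figure D2:**
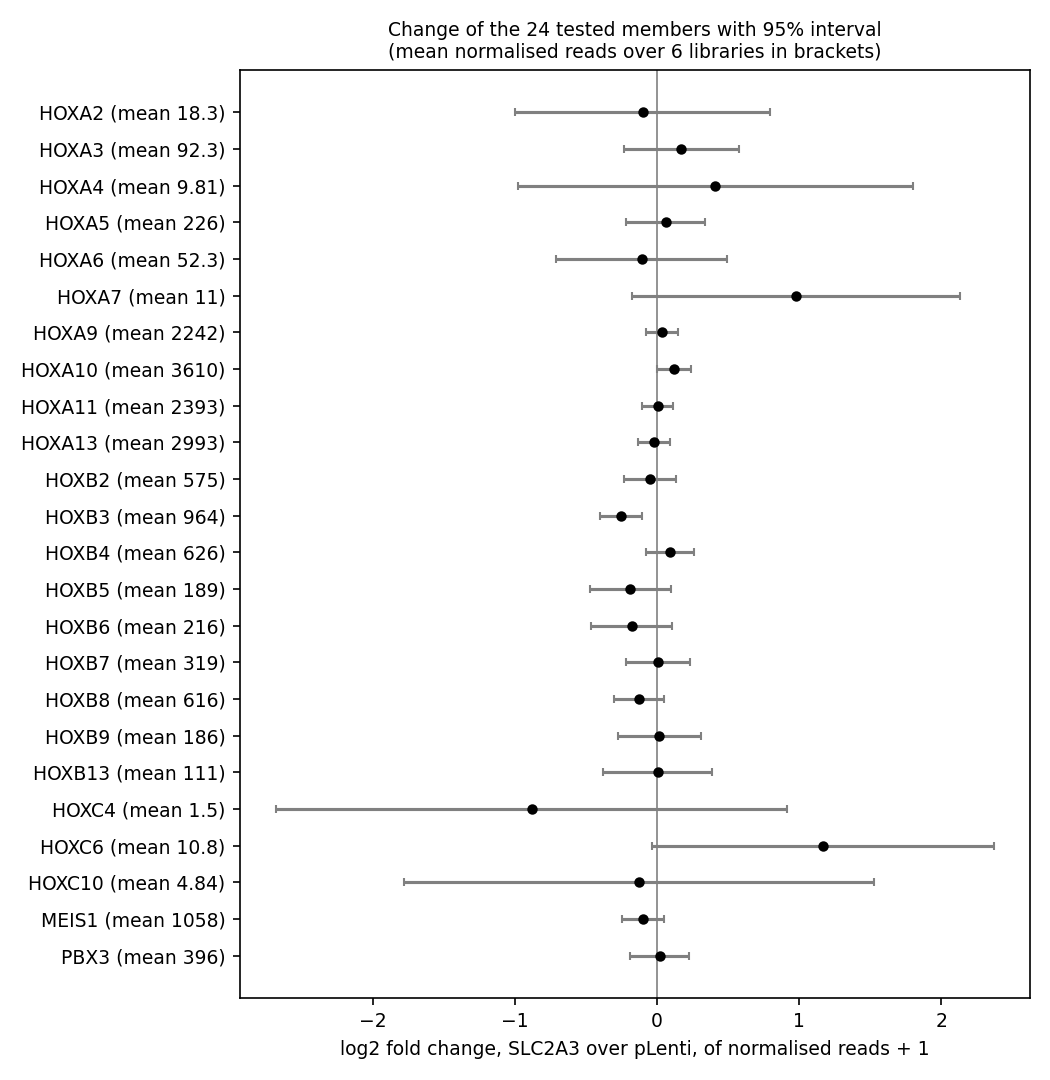
Log2 fold change of SLC2A3 over pLenti with its 95% interval from limma for the 24 tested members, in cluster order, with the mean normalised reads in brackets. Intervals are narrow for the abundant HOXA and HOXB genes, MEIS1 and PBX3, and wide for HOXA2, HOXA4, HOXA7 and the HOXC genes. That of HOXB3 lies below 0 and that of HOXA10 just above 0.

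Among the posterior HOXA genes, HOXA9 had 2243, 2273 and 2291 normalised reads in SLC2A3 libraries, against 2153, 2299 and 2189.6 in pLenti libraries. The SLC2A3 values all lay within the pLenti range. The log2 fold change was 0.04, with a 95% interval of -0.08 to 0.15 (limma adjusted p = 0.876).

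HOXA10 had 3396, 4085 and 3816 normalised reads in SLC2A3 libraries, against 3606, 3397 and 3358 in pLenti libraries. SLC2A3 replicates 2 and 3 were above all pLenti libraries, while replicate 1 lay beside the lower pLenti values. Its log2 fold change was 0.12, with an interval of 0.0035 to 0.24 (limma adjusted p = 0.406).

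HOXA11 had 2378, 2341 and 2475 normalised reads in SLC2A3 libraries, against 2415, 2414 and 2333 in pLenti libraries. HOXA13 had 2829, 2948 and 3131 in SLC2A3 libraries, against 3009.9, 3163 and 2875 in pLenti libraries. Both sets overlapped throughout, with log2 fold changes of 0.01 for HOXA11 (-0.10 to 0.12) and -0.02 for HOXA13 (-0.13 to 0.09). The sum over the 10 HOXA genes was 11824 ± 490.3 in SLC2A3 libraries and 11470 ± 247 in pLenti libraries (SD, n = 3 each), a ratio of 1.03.

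**Figure D3:**
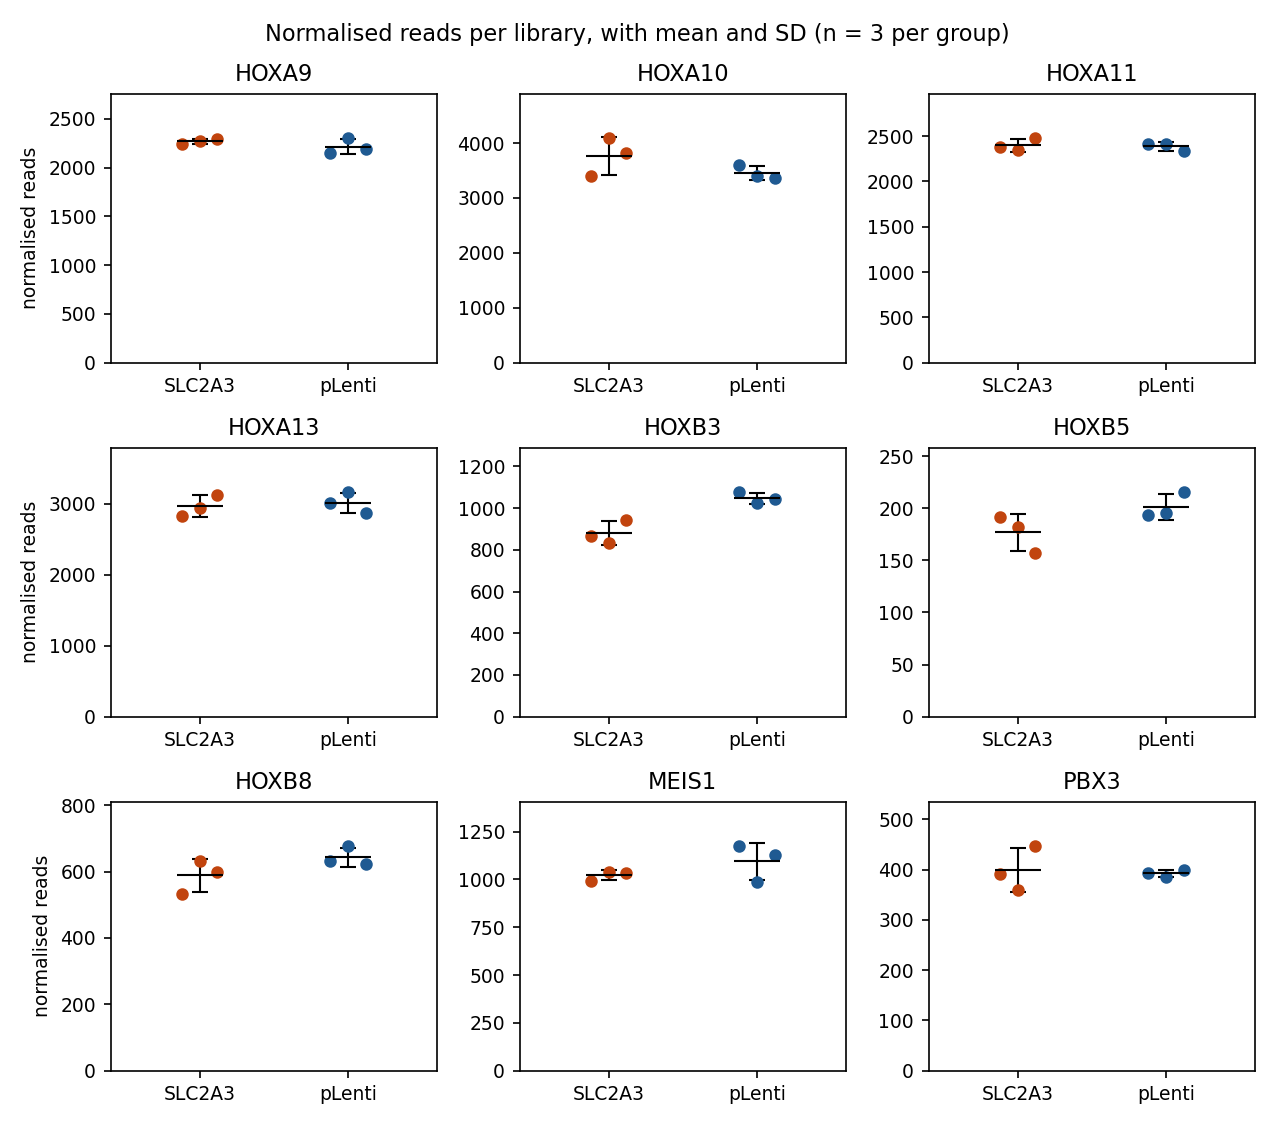
Normalised reads per library for 9 members, SLC2A3 left of pLenti, with the mean and SD of 3 libraries as black bars and axes that start at 0. The groups overlap for HOXA9, HOXA10, HOXA11, HOXA13, HOXB8, MEIS1 and PBX3, and do not overlap for HOXB3 and HOXB5.

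The other HOXA genes stood lower. HOXA5 had 228, 199 and 268 normalised reads in SLC2A3 libraries, against 217, 200.02 and 246 in pLenti libraries. HOXA3, which patterns the pharyngeal arches and thymus, had 102, 104 and 87.6 in SLC2A3 libraries, against 87.6, 76.0 and 97.1 in pLenti libraries. The groups overlapped for both, with log2 fold changes of 0.06 for HOXA5 (-0.22 to 0.34) and 0.17 for HOXA3 (-0.23 to 0.58).

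HOXA6 had 39.9, 72.9 and 39.5 normalised reads in SLC2A3 libraries, against 66.2, 39 and 56.1 in pLenti libraries. HOXA2 had 18.6, 23 and 11.7 in SLC2A3 libraries, against 22.4, 20 and 14.0 in pLenti libraries. The groups overlapped for both genes. HOXA7, which is known to be activated with Meis1 in mouse myeloid leukaemia, had 16.7, 14.4 and 11.7 in SLC2A3 libraries, against 13.2, 7 and 3 in pLenti libraries. Its log2 fold change of 0.98 had an interval of -0.18 to 2.13 (limma adjusted p = 0.539), and pLenti replicate 1 lay within the SLC2A3 range. HOXA4 ranged from 7.43 to 11.5 in SLC2A3 libraries and from 1 to 17.3 in pLenti libraries.

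In the HOXB cluster, HOXB3 came closest to the threshold. HOXB3 (ENSG00000120093.11, chromosome 17, 48548870 to 48604912), a gene of the hindbrain and of blood progenitors, had 867, 831 and 945 normalised reads in SLC2A3 libraries, against 1076, 1023 and 1042 in pLenti libraries. All SLC2A3 values were below all pLenti values. The means were 881 ± 58.2 in SLC2A3 libraries and 1047 ± 26.6 in pLenti libraries (SD, n = 3 each). Its log2 fold change was -0.25, with an interval of -0.40 to -0.10 (limma adjusted p = 0.0858). It passed with DESeq2 and its default filter (adjusted p = 0.0342) and with limma once at least 50 normalised reads were required in 3 libraries (adjusted p = 0.0369). Over 18 alternatives the adjusted p ran from 0.0342 to 0.261, and the log2 fold change from -0.30 to -0.21. Of the HOXB3 exon bases, 7.94% are shared on the same strand with HOXB4 and HOXB6.

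HOXB5 was the other member without overlap, with 191, 182 and 157 normalised reads in SLC2A3 libraries, against 194, 195 and 215 in pLenti libraries. The nearest values of the groups differed by few reads, and the log2 fold change was -0.19 (-0.47 to 0.10, limma adjusted p = 0.676). HOXB4 had 668, 670.3 and 601 in SLC2A3 libraries, against 620.3, 606 and 589 in pLenti libraries, and overlapped, with a log2 fold change of 0.09 (-0.08 to 0.26). HOXB2 had 506, 621 and 570.3 in SLC2A3 libraries, against 570.4, 575 and 608 in pLenti libraries, so the neighbours on either side of HOXB3 both overlapped between the groups.

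HOXB6, a gene of early myeloid cells, had 219, 209 and 178 normalised reads in SLC2A3 libraries, against 249, 190.0 and 250.3 in pLenti libraries. HOXB7 had 350.1, 311 and 298 in SLC2A3 libraries, against 306, 332 and 315 in pLenti libraries. Both overlapped, with log2 fold changes of -0.18 for HOXB6 (-0.46 to 0.11) and 0.01 for HOXB7 (-0.22 to 0.23). HOXB8, the gene with the miR-196 site shown above, had 534, 633 and 600.2 in SLC2A3 libraries, against 631, 676 and 622 in pLenti libraries. SLC2A3 replicate 2 reached into the pLenti range, and the log2 fold change was -0.13 (-0.31 to 0.05, limma adjusted p = 0.629).

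HOXB9 had 194, 175 and 190.1 normalised reads in SLC2A3 libraries, against 161, 206 and 188 in pLenti libraries. HOXB13 had 121, 93.0 and 121 in SLC2A3 libraries, against 92.7, 129 and 112 in pLenti libraries. The groups overlapped for both genes, and the pLenti values of HOXB9 spread more widely than its SLC2A3 values. The sum over the 10 HOXB genes was 3650.3, 3726 and 3661 in SLC2A3 libraries, against 3898, 3932 and 3942 in pLenti libraries, a ratio of 0.938 without overlap. Without HOXB3, the sums were 2783, 2895 and 2716 in SLC2A3 libraries, against 2823, 2909 and 2899 in pLenti libraries, a ratio of 0.973, and the groups overlapped. These sums are given as a description, with no test.

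HOXC6 was the only HOXC gene with a mean over 10 normalised reads. It had 11.1, 15.3 and 17.1 in SLC2A3 libraries, against 2.04, 12.0 and 7.01 in pLenti libraries. pLenti replicate 2 lay within the SLC2A3 range, and the log2 fold change of 1.17 had an interval of -0.03 to 2.37 (limma adjusted p = 0.445). HOXC4, with 9 reads, and HOXC10, with 30 reads, were tested with intervals of -2.68 to 0.92 and -1.78 to 1.52. The other 16 members, HOXB1, 6 HOXC genes and the 9 HOXD genes, did not pass the filter, and no difference was detectable for them at this depth.

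MEIS1 had 992, 1039 and 1034 normalised reads in SLC2A3 libraries, against 1172, 987 and 1126 in pLenti libraries. pLenti replicate 2 lay below all SLC2A3 libraries and the other pLenti libraries lay above them. The log2 fold change was -0.10, with an interval of -0.25 to 0.05 (limma adjusted p = 0.686). PBX3 had 392, 359.6 and 446 in SLC2A3 libraries, against 393, 386 and 398 in pLenti libraries. Its SLC2A3 values spread around the narrow pLenti range, and the log2 fold change was 0.02, with an interval of -0.19 to 0.23 (limma adjusted p = 0.974).

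Genes around the HOX system were read from lists chosen with earlier results of these data known. The 8 other HOX cofactors, all tested, had 0 called members, where limma called 1.49% of all genes tested. Of 33 chromatin regulators of HOX loci, 0 rose, 2 fell and 31 did not pass (limma, adjusted p under 0.05). The list median log2 fold change was -0.05, against 0.0014 over all genes. The lowest mean among the 33 was 197 normalised reads, while the 1.49% also covers low genes, so these shares are not matched for level. With at least 50 normalised reads required in 3 libraries, 739 of 13374 genes passed. KMT2D, a histone H3 lysine 4 methyltransferase, had 10326, 8292 and 9983 normalised reads in SLC2A3 libraries, against 10975, 11209 and 11912 in pLenti libraries. It fell by 0.26 on the log2 scale (limma adjusted p = 0.0106), was lowest in SLC2A3 replicate 2, and was not called without that library (log2 fold change -0.16, adjusted p = 0.0775), without SLC2A3 replicate 3 (0.0536), with a pseudocount of 0.1 (0.0613) or with DESeq2 (0.106). NSD1, a histone H3 lysine 36 methyltransferase, had 5454, 5068 and 5491 in SLC2A3 libraries, against 6028, 5916 and 6284 in pLenti libraries. It fell by 0.19 (limma adjusted p = 0.0322), and was not called without SLC2A3 replicate 2 (0.151), SLC2A3 replicate 3 (0.0903), pLenti replicate 1 (0.0792) or pLenti replicate 3 (0.213), or with a pseudocount of 0.1 (0.0640). Over 18 alternatives the adjusted p of KMT2D ran from 0.000174 to 0.355 and that of NSD1 from 0.00186 to 0.213. The methyltransferase DOT1L, chosen after its values were seen because edgeR called it (adjusted p = 0.0376), had a log2 fold change of -0.16 and a limma adjusted p of 0.0793, with 0.00781 to 0.408 over the alternatives.

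NPM1 and 5 nuclear transport genes had 0 called members by limma, although 5 of the 6 had an unadjusted p under 0.05, against 11.8% of all genes tested. That share covers genes of all levels, while the lowest mean among the 6 was 4057 normalised reads. edgeR called 3.29% of its genes and 1 of these 6, the nucleoporin NUP214, with a log2 fold change of -0.17 (adjusted p = 0.0322, and 0.00690 to 0.284 over the alternatives). NPM1 averaged 41903 ± 1174 normalised reads in SLC2A3 libraries and 39276 ± 656 in pLenti libraries, a log2 fold change of 0.09 (limma adjusted p = 0.215). Gene counts do not separate its mutant and normal transcripts.

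Of 11 upstream factors, 8 were tested, 0 rose and 1 fell, where limma called 1.49% of all genes tested. RARA, the retinoic acid receptor alpha, through which retinoids control HOX genes, had 2231, 2249 and 2085 normalised reads in SLC2A3 libraries, against 2470.1, 2651 and 2710.2 in pLenti libraries. It fell by 0.25 on the log2 scale (limma adjusted p = 0.0131, and 0.000803 to 0.144 over the alternatives), and was not called without SLC2A3 replicate 3 (0.144) or pLenti replicate 3 (0.114). CDX1 and CYP26A1 were at 0 in all libraries, and CDX2 and CDX4, homeobox activators of HOX genes, had a few reads. Of 30 HOXA9 and MEIS1 targets and partners, 27 were tested, 1 rose and 1 fell, against the same 1.49% of all genes. SOX4, a progenitor transcription factor, averaged 17304 ± 539 in SLC2A3 libraries and 14223 ± 723 in pLenti libraries (log2 fold change 0.28, limma adjusted p = 0.00016, called in all 18 alternatives). FLT3, a receptor tyrosine kinase and known HOXA9 and MEIS1 target, averaged 2808 ± 103 in SLC2A3 libraries and 3254 ± 102 in pLenti libraries (log2 fold change -0.21, limma adjusted p = 0.0277). FLT3 was called in 11 of 18 alternatives, not with a pseudocount of 0.1 (0.0536) or a replicate block in limma (0.0512), and lost its call without any library but pLenti replicate 2 (0.0620 to 0.155).

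**Figure D4:**
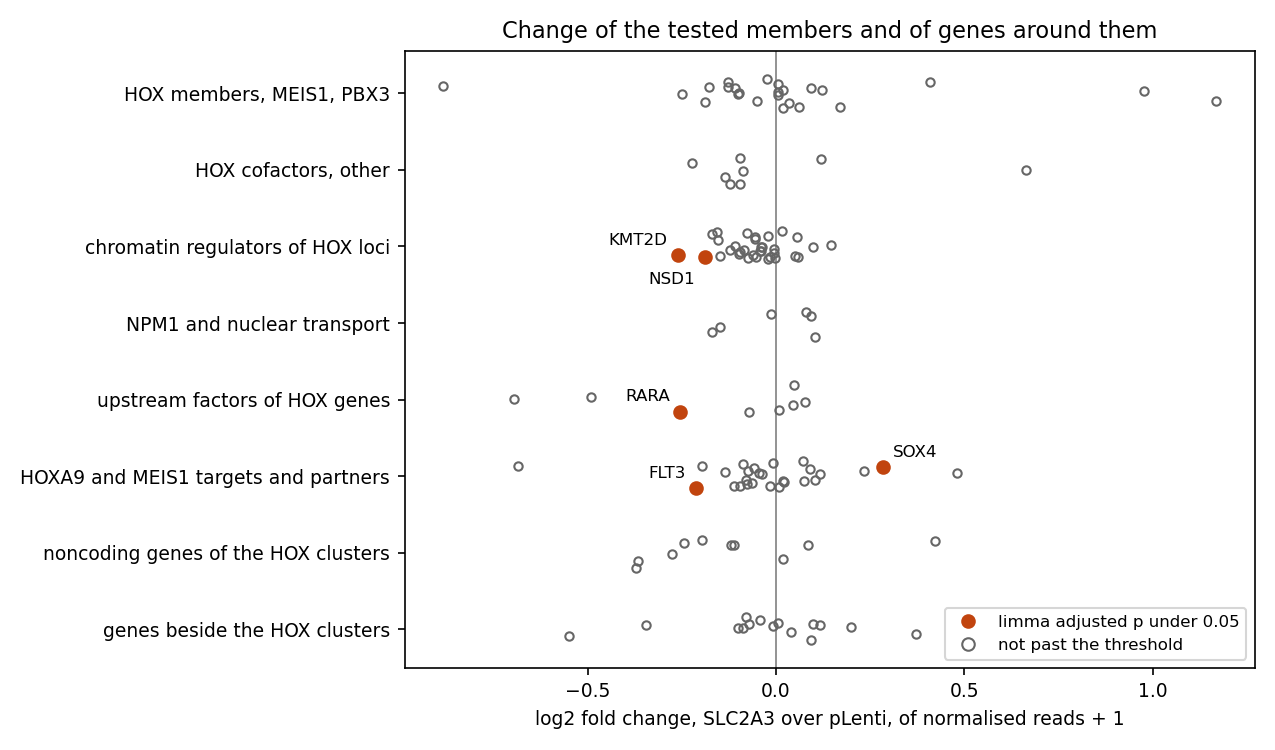
Log2 fold change of SLC2A3 over pLenti for the tested members and for each list of genes around them, 1 point per gene, with filled points for limma adjusted p under 0.05. The members have 0 filled points, and the filled points elsewhere are KMT2D, NSD1, RARA, FLT3 and SOX4, with sizes between 0.19 and 0.28.

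Of 23 noncoding genes of the clusters, 10 were tested and 0 were called, where limma called 1.49% of all genes tested. Another 10 had 0 reads, among them 3 of the HOXD cluster (HOXD-AS2, HAGLR and HAGLROS). HOXB-AS3 stood at 1114 normalised reads per kb, above every HOXB gene, HOXA11-AS at 350.3, HOTTIP, a transcript beyond HOXA13, at 293, HOXA10-AS at 157 and HOXB-AS1 at 118. HOTAIRM1, at the anterior end of HOXA, stood at 70.6 per kb and HOTAIR, of the HOXC cluster, at 0.123. HOTTIP had 1434, 1449.9 and 1285 normalised reads in SLC2A3 libraries, against 1629.8, 1560.2 and 1581 in pLenti libraries, without overlap (log2 fold change -0.20, limma adjusted p = 0.144). HOXA11-AS did not overlap either, at 1043, 1036 and 1083 in SLC2A3 libraries and 1111, 1149 and 1152 in pLenti libraries (log2 fold change -0.11, limma adjusted p = 0.566). HOXB-AS2, the other noncoding gene without overlap, averaged 32.7 ± 1.87 in SLC2A3 libraries and 42.6 ± 5.43 in pLenti libraries (limma adjusted p = 0.727). Among all 28015 genes tested, the groups did not overlap for 16.3%.

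Outside the clusters, 15 of 18 neighbouring genes were tested and 0 were called, where limma called 1.49% of all genes tested. Beyond the posterior end of HOXA, EVX1, a homeobox gene, stood at 0.740 per kb and HIBADH, a metabolic enzyme gene, at 489, against 588 for HOXA13. SKAP2, beyond the anterior end, stood at 352 per kb, against 7.44 for HOXA2. PRAC1, next to HOXB13, was at 0, and EVX2, next to HOXD13, was at 0. MTX2 and LNPK, which flank the HOXD cluster, stood at 331 and 120.5 per kb, so genes on both sides of the HOXD cluster were expressed while its 9 members held 7 reads.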

How the data were processed

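RNA of 6 OCI-AML3 samples was sequenced from libraries made with a directional kit, per the labels' protocols. BWA, TopHat2 and hg38 are named, without roles, per the submitters' processing notes. The deposited values are a normalised signal: in each library 100% of the 60660 values were whole multiples of 1 step per library within 0.001, so they are read counts divided by 1 factor per library (0.936 to 1.08), from which whole reads were recovered. IDs were matched to symbols by a gene name table (60419) and GENCODE 29 (60641 in all), whose exons also gave lengths.

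The 28015 genes that reached a value of 1 in 3 or more libraries were fitted on log2(value + 1) with limma-trend 3.58.1 in R 4.3.3, group as the only term, and p-values were adjusted by Benjamini-Hochberg over all of them (threshold 0.05). The added 1 draws the log ratio of any pair of low values towards 0. edgeR 4.0.16 quasi-likelihood and DESeq2 1.42.0 tests ran on the recovered reads as alternatives, beside other filters, other pseudocounts, equal totals, a replicate block and fits that leave out 1 library. For expression level, the mean value was divided by the union of annotated exons. Since nothing states that the replicates were grown separately, the p-values cover the spread between these libraries, which may be technical. Replicates of a group were compared to see whether any were the same library sequenced again. Pairs differed by more than sampling noise (chi-square per gene 3.50 to 6.78), so all 6 were kept as separate libraries. This does not measure library quality. In simulated counts with 200 changed genes over 29822 genes tested, limma recovered 55% of genes changed 1.5-fold and 78% of those changed 2-fold, with 0 false among 133 calls. The changed genes were drawn only from those above a minimum mean, so these shares do not cover HOXA2, HOXA4, HOXA7 or the HOXC genes. Values were given per library for members with a mean of at least 10 normalised reads, MEIS1, PBX3 and any called member, and of other lists the called genes were named.

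The members and lists were chosen with earlier results of these data known. Of 39 HOX genes, 38 are reported, and some genes of the lists are not reported here.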

Additional observations from a re-analysis of the deposited data

How the results depend on the processing

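The number of genes called, 418 in all (194 higher, 224 lower), was 784 with DESeq2 and its default filter and 739 with at least 50 normalised reads required in 3 libraries, and 188 to 466 when 1 library was left out, with fewer samples. It fell below 418 by over 1.5 times without SLC2A3 replicate 3 (188), pLenti replicate 1 (264) and pLenti replicate 3 (221). Members called numbered 1, HOXB3, under DESeq2 with its default filter and under the filter of 50, both of which adjust over fewer genes, and 0 under the other 16 alternatives. The SLC2A3 log2 change ran from 1.68 to 1.74. Members at 1 or more per kb numbered 23 to 24, also with exon bases of a single gene as the length, an alternative chosen after seeing the data.

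Among the 24 tested members, 12 kept their direction under every alternative that gave them a value, and for HOXA9, HOXA10, HOXB3, HOXB4, HOXB8 and MEIS1 these were all 18, while the other 12, never called, turned at least once; the cause was not tested. HOXA4 turned to -0.0860 with edgeR TMM, -0.0833 with relative log expression factors, -0.0862 with total reads and -0.0869 with DESeq2 under either filtering, HOXB13 to -0.00015 with edgeR TMM and -0.00025 with total reads, and HOXC10 to 0.49 with DESeq2 under either filtering and 0.10 with a pseudocount of 5. With 1 library left out the log2 changes ran from -0.30 to 0.15 (HOXA2), -0.57 to 1.02 (HOXA4), -0.0481 to 0.16 (HOXA5), -0.39 to 0.0559 (HOXA6), -0.0168 to 0.0233 (HOXA11), -0.0616 to 0.0122 (HOXA13), -0.12 to 0.0272 (HOXB2), -0.0611 to 0.0548 (HOXB7), -0.0790 to 0.10 (HOXB9), -0.12 to 0.13 (HOXB13), -0.87 to 0.93 (HOXC10) and -0.0643 to 0.0914 (PBX3).

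Equal replicate numbers did not pair the libraries: deviations correlated by -0.11, 0.01 and -0.00 over 11730 genes. A replicate block gave 363 called genes in limma and 491 in edgeR, with 0 members called in either. Low reads limit HOXA2, HOXA4, HOXA7 and the HOXC genes.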
